A study of Mus musculus with 90 samples.

Results

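The Krüppel-like factors (KLFs) followed here are Klf3, Klf6, Klf9, Klf10, Klf11, Klf12, Klf13, and Klf15, 8 genes of the 24312 gene symbols in the liver RNA table. They were taken by name, each through the RefSeq ID with the highest mean over all libraries, and all 8 had an ID and were tested in all 5 RNA experiments. Liver RNA was measured as RPKM (read numbers corrected for how long the transcript and how deep the library is) in 54 libraries of single mice on night-restricted feeding (NRF), in 16 groups. All mice had a C57BL/6 background and were 10 weeks old in the NRF, injection, and L-IRSdKO experiments. By the study's methods this was C57BL/6N in the NRF, injection, and L-GRKO experiments and C57BL/6J in the L-IRSdKO experiment. In the diet experiment high-fat feeding began at 5 weeks of age, and the L-GRKO mice are described only as adult.

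In the NRF experiment, wild-type mice were taken at ZT10 or at ZT14, the latter unfed or fed from ZT12 on, with 2 mice per group and RNA depleted of ribosomal RNA. In the other experiments the RNA was enriched for poly(A) and all livers were taken at ZT14. In the injection experiment, wild-type mice received vehicle, the glucocorticoid dexamethasone (dex, 1 mg/kg), the insulin receptor antagonist S961 (44 nM per mouse in the labels, 44 nmol/kg in the study's methods), or both before the meal, and another group received vehicle and no meal, with 4 mice each. In the L-GRKO experiment, unfed mice with floxed alleles of Nr3c1 received AAV with GFP or with Cre, both under the liver-specific Tbg promoter, 4 mice each, so that both groups carry virus and floxed alleles. In the L-IRSdKO experiment, fed mice with floxed Irs1 and Irs2 and without or with Cre under the albumin promoter (Alb-Cre) were compared, 4 each, and both groups had received dex (1 mg/kg). In the diet experiment, lean mice (chow) and obese mice (high-fat diet) were kept on their diet for 10 weeks and then on NRF, and were taken unfed or fed, 3 each. Sites bound by the glucocorticoid receptor (GR) and by FOXO1 and DNase I hypersensitive sites (DHSs) came as lists of positions from livers pooled from 3 to 4 wild-type mice. By the study's account, the GR and FOXO1 sites were called in unfed livers at ZT14. The DHSs were called on the combined reads of unfed and fed livers at ZT14.

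KLF proteins bind GC boxes and CACCC boxes through zinc fingers at their C-terminal end, and the remainder of the protein sets which cofactors are recruited. Klf9, Klf10, Klf11, and Klf13 bind the SIN3 corepressor, Klf3 and Klf12 bind the corepressor CtBP, and Klf6 and Klf15 act through other partners. In the liver, KLF15 is known for the control of amino acid breakdown and glucose production in fasting, and Klf9 and Klf15 are classical targets of glucocorticoids.

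The genes lie on mm9 at chr5:65194628-65221368 (Klf3), chr13:5860735-5869639 (Klf6), chr19:23215716-23241401 (Klf9), chr15:38221219-38230464 (Klf10), chr12:25336236-25347639 (Klf11), chr14:100269869-100549015 (Klf12), chr7:71031237-71083801 (Klf13), and chr6:90412570-90425232 (Klf15). The sites printed here are the FOXO1 site at the promoter of Klf9, the 4 GR sites near Klf9, Klf13, and Klf15 that held a pair of GR motifs, and the GR site of Klf3 that held both a GR half-site and a forkhead motif. All are in mm9, on the plus strand, 5′ to 3′. Capitals mark the GR half-site AGAACA, the pair of GNACA and TGTNC with any 3 bases between, and the forkhead motif GTAAACA, on either strand, and the half-site and the pair can overlap.
Klf9, FOXO1 site, chr19:23215489-23215668: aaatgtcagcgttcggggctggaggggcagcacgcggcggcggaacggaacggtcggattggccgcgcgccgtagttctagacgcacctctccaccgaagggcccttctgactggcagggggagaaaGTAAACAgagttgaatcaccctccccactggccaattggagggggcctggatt
Klf9, GR site, chr19:23209492-23209671: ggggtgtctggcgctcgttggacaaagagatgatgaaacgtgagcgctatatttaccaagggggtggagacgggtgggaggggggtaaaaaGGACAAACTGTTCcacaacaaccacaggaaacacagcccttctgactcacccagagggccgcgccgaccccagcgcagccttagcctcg
Klf15, GR site in the gene, chr6:90421287-90421466: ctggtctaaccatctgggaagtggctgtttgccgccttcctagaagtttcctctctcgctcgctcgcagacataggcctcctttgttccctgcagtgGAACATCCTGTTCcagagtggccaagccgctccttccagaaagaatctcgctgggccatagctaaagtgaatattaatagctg
Klf15, GR site in Aldh1l1, chr6:90459227-90459406: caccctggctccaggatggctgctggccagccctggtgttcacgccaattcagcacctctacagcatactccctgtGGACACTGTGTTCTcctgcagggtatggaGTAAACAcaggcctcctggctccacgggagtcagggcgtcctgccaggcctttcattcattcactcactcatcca
Klf3, GR site, chr5:65201235-65201414: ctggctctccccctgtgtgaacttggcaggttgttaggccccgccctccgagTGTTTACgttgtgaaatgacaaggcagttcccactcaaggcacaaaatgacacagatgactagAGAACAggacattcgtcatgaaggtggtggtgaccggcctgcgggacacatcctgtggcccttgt
Klf13, GR site, chr7:71041861-71042040: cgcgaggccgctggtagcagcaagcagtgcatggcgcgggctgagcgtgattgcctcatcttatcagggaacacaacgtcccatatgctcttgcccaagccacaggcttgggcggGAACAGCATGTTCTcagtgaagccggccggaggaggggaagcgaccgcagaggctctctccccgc

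The FOXO1 site of Klf9 lies 138 bp upstream of the transcription start site (TSS), in no annotated gene, overlaps a DHS but no GR site, and holds 1 forkhead motif. The GR site of Klf9 lies 6135 bp upstream, in an intron of 2410080I02Rik, overlaps a FOXO1 site but no DHS, and holds a pair. At Klf15, the site with a pair lies in an intron, 8806 bp downstream of the TSS, and overlaps neither a FOXO1 site nor a DHS. The other Klf15 site lies in an intron of the neighbouring gene Aldh1l1, whose TSS is nearer, 46746 bp downstream of that of Klf15, overlaps a FOXO1 site and a DHS, and holds a pair, a half-site, and a forkhead motif. The Klf3 site lies in an intron 6696 bp from the TSS and overlaps neither a FOXO1 site nor a DHS. The Klf13 site lies in an intron 41851 bp from the TSS, overlaps both, and holds a pair and a half-site.

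Within 50 kb of their TSS, 7 of the 8 KLF genes had a GR site, 7 a FOXO1 site, and 8 a DHS, against 33.8%, 35.4%, and 88.4% of the 19783 genes placed on mm9. These 19783 include genes too low in the liver RNA to be tested, whereas all 8 KLF genes were tested. The shares among tested genes alone were not computed. Klf15 had 9 GR sites and 6 FOXO1 sites, all 6 of which overlapped a GR site by at least 1 base. Klf13 had 5 GR and 4 FOXO1 sites, Klf3 4 and 2, Klf9 2 and 3, Klf12 2 and 2, and Klf10 2 and 1. Klf11 had 1 FOXO1 site, 24.8 kb upstream, and Klf6 1 GR site, 19.9 kb upstream. The sites of Klf10 were 47.2 and 48.3 kb upstream, near the limit of the window, whereas Klf15 and Klf3 had a GR site overlapping a FOXO1 site 1.0 and 3.0 kb downstream of their TSS, in introns. Of the 25 GR sites, 17 overlapped a FOXO1 site and 21 a DHS, and of all 10446 GR sites, 48.8% and 81.6% did. None of the 25 GR and 19 FOXO1 sites touched an annotated exon. The lists hold positions only, so occupancy in fed and unfed livers was not compared here.

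**Figure D1:**
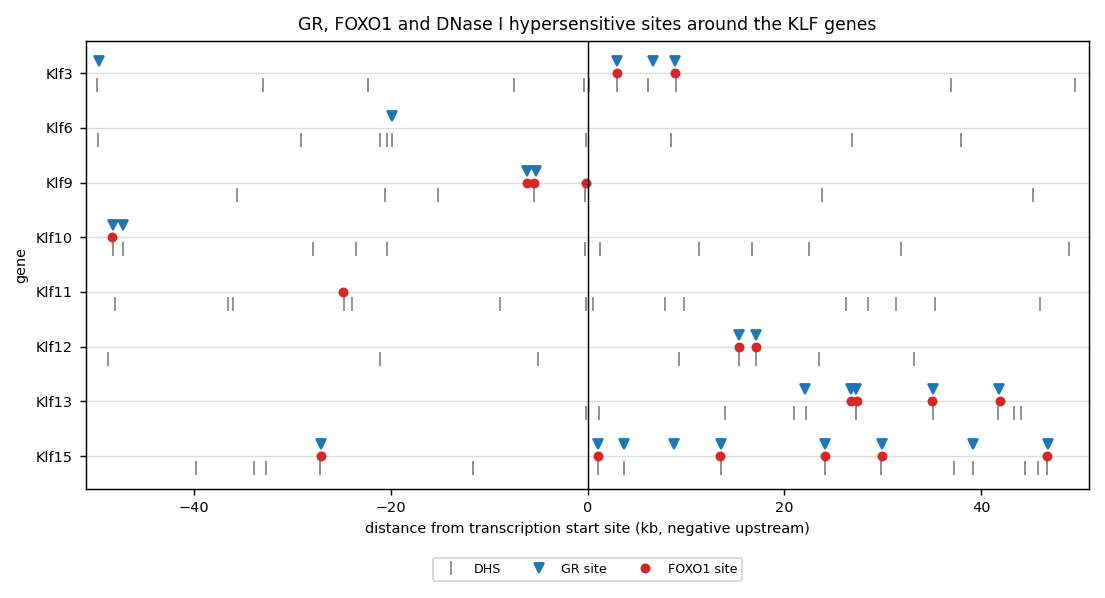
Positions of GR sites (triangles), FOXO1 sites (circles), and DHSs (bars) around the TSS of the 8 KLF genes, one gene per row, with the distance from the TSS in kb on the x axis. Klf15 has 9 GR sites and 6 FOXO1 sites, and Klf11 and Klf6 have 1 GR or FOXO1 site each.

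The half-site was present in 6 of the 25 GR sites (27.7% of all GR sites held it), the pair in 4 (7.8% of all), and the forkhead motif in 3 (7.29% of all). Of the 19 FOXO1 sites, 3 held the forkhead motif, against 18.8% of all FOXO1 sites. In the 250 bases upstream of the start that RefSeq gives (GRCm38.p6; 7 members have an entry), the E-box CACGTG was found in Klf6, Klf11, and Klf15, the last with 2 copies, and in 6.02% of all 32851 promoters. The GC box GGGCGG, the class of site that KLF proteins bind, was found in 5 of the 7, with 6 copies in Klf3 and 4 in Klf11, and in 32.7% of all promoters. CACCC was found in 5 of the 7 and in 52.0% of all promoters. These matches are letters in a window and were not tied to the RNA values.

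Nr3c1, which encodes GR, was at 12.8 to 16.2 RPKM in the AAV-GFP livers and at 3.93 to 5.35 in the L-GRKO livers. Irs1 was at 2.21 to 4.73 RPKM in the floxed livers and at 0.149 to 0.321 in the L-IRSdKO livers, whereas Irs2, at 0.614 to 5.61 and 0.272 to 1.00, overlapped. The library of L-IRSdKO replicate 1 stood apart, with Foxo1 at 3.29 RPKM against 15.03 to 19.9 in the other 7 libraries, and the L-IRSdKO results are therefore also given without it. In that experiment the albumin transcript, Alb, was at 650.0 to 914 RPKM, against 18900 to 60600 in the other experiments, so levels are not compared between experiments. The replicate 4 libraries of the injected mice carry library numbers apart from those of replicates 1 to 3, and values in replicates 1 to 3 are given beside the pooled ones, as 1 library per group of the other numbers gives no value of its own. All 6 hepatocyte markers were above 0.05 RPKM in every group. From the step that 1 read makes, depth was 26.0 to 38.0 M reads in the NRF, 6.47 to 13.45 M in the injection, and 16.8 to 61.8 M in the diet experiment. This step did not settle the depth in the other experiments, for which the study lists sequencing numbers. In that list every library of the L-IRSdKO experiment has a lower number than any library of the diet experiment.

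As RPKM are scaled to length, the KLF transcripts can be ranked within an experiment. Klf15 was highest in all 5 experiments, with means of 42.0 RPKM over the 6 NRF libraries and 65.5 over the 20 injection libraries, followed by Klf9 with 20.5 and 33.1. The ranges of these 2 genes overlapped in the NRF libraries (28.8 to 54.4 for Klf15 and 8.85 to 30.2 for Klf9) and in the injection libraries (27.3 to 107 and 23.8 to 49.8), and not in the other experiments. Klf3, Klf10, and Klf13 were intermediate, with means of 5.46, 5.79, and 4.76 RPKM in the NRF libraries, where their ranges overlapped. Klf12 followed with 3.20, and Klf6 and Klf11 were lowest, with 1.93 and 1.72 RPKM. The lowest value, 0.387 RPKM for Klf11 in fed dex replicate 2, corresponds to about 10 reads.

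**Figure D2:**
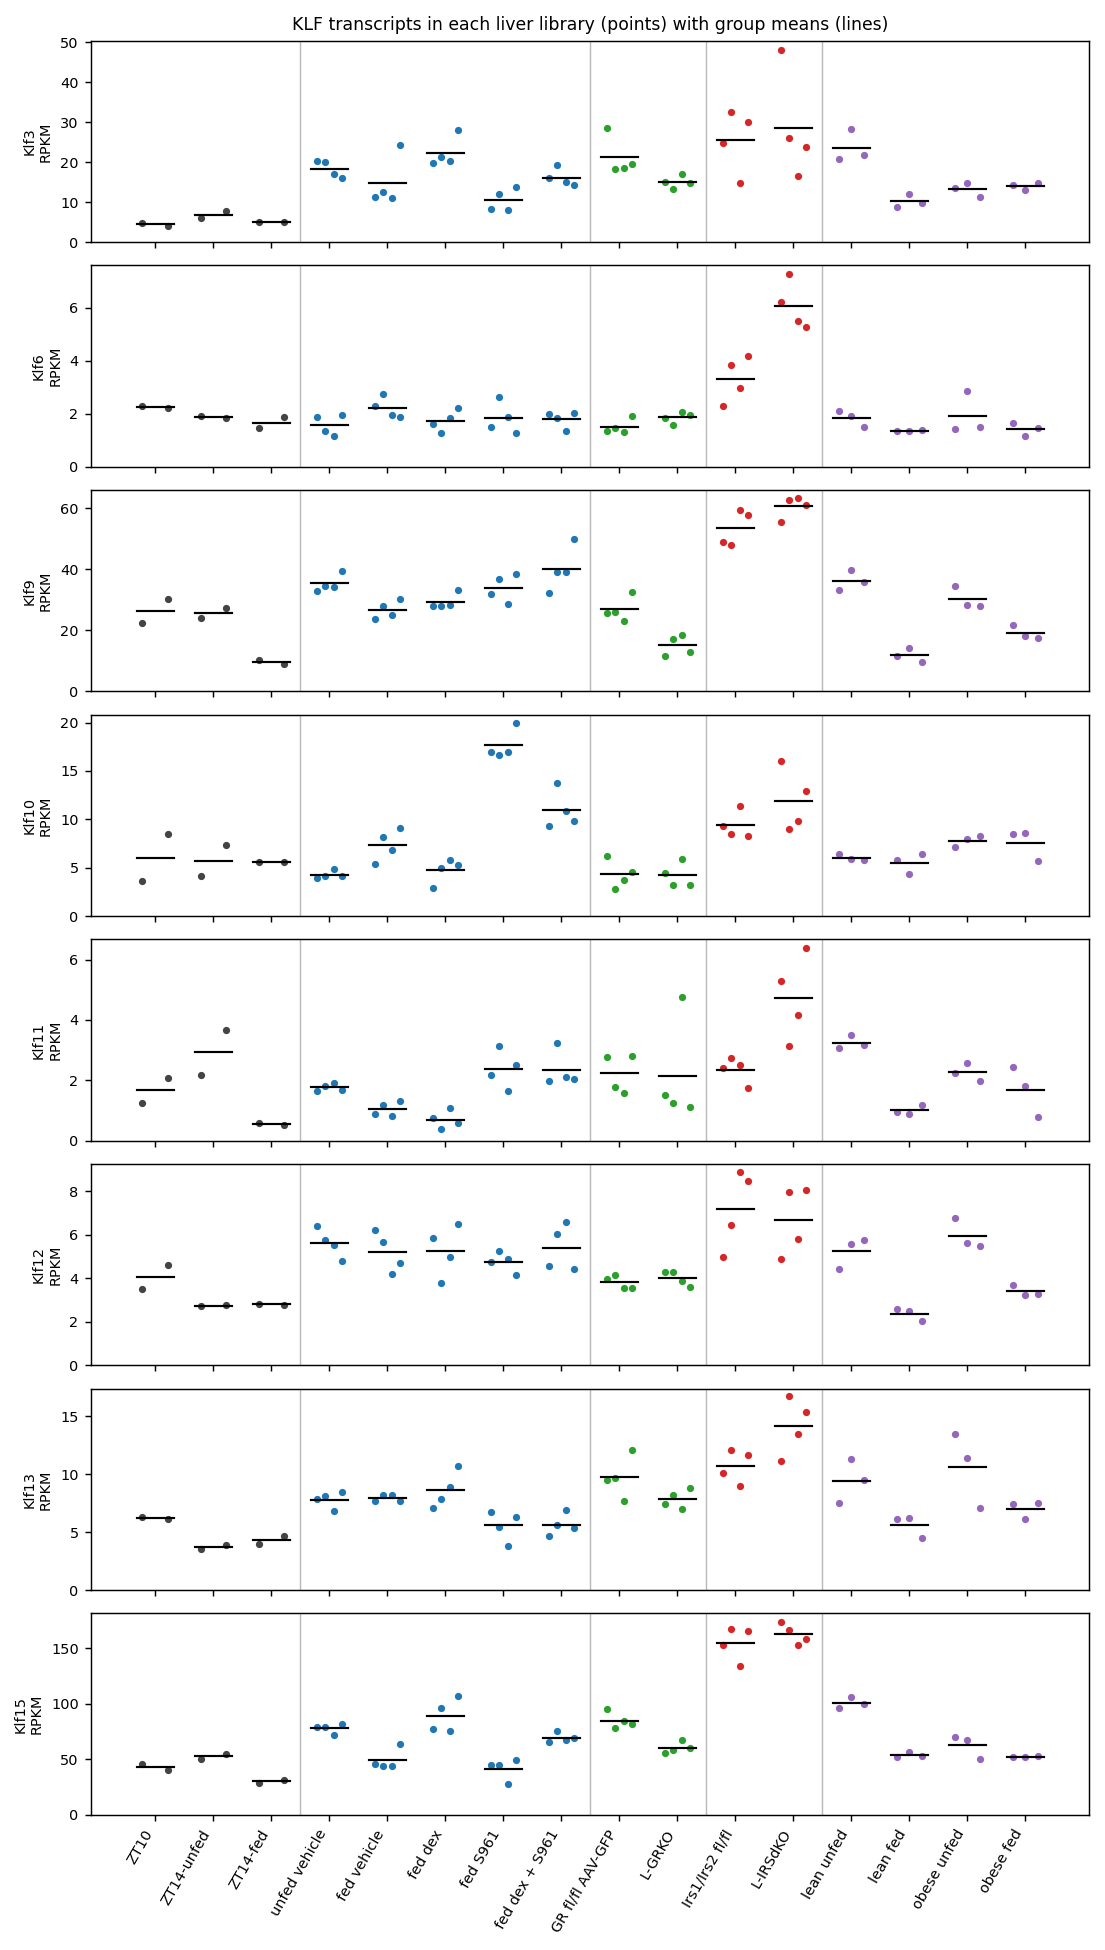
RPKM (y axis, linear, from 0) of the 8 KLF transcripts in the 54 liver libraries, one panel per gene; points are single mice in replicate order, black lines are group means, and grey lines part the 5 experiments. Klf15 falls with the meal in the uninjected, vehicle-injected, and lean mice, and Klf10 is highest among the injected mice in the 4 fed S961 libraries.

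The time of day without food, ZT14-unfed against ZT10, changed 1 of the 8 KLF transcripts, at a Benjamini-Hochberg (BH) adjusted limma p under 0.05 over all genes tested (8.95% of the 10907 genes passed). Klf13, a SIN3-binding factor first studied in T lymphocytes, was at 6.33 and 6.13 RPKM at ZT10 and at 3.55 and 3.89 at ZT14-unfed, groups that did not overlap. Its difference was -0.67 (SE 0.11, adjusted p = 0.0169) on the log2(RPKM + 0.5) scale, which is the scale of all differences given, where low levels give smaller differences than their ratio would. Klf3 (0.55, adjusted p = 0.0614), Klf11 (0.65, adjusted p = 0.149), and Klf12 (-0.48, adjusted p = 0.0637) did not pass, and the other 4 lay between -0.22 and 0.28. These groups of 2 mice were apart in 6 of the 8 KLF genes, Klf13 among them, and the share of all genes with groups apart is not given here. The median of all genes was -0.1 in this comparison. The call of Klf13 was lost without ZT10 replicate 1 or 2 or ZT14-unfed replicate 1 (values of -0.69 to -0.61, adjusted p = 0.0524 to 0.0794). Without ZT14-unfed replicate 1, Klf3 passed (0.73, adjusted p = 0.0323), and without replicate 2 it was 0.36. Klf11 was 0.38 without ZT10 replicate 1 and 0.33 without ZT14-unfed replicate 2. Klf10, at -0.02, ranged from -0.58 to 0.54 when 1 library was left out, and Klf15 passed with median-ratio scaling (0.39, adjusted p = 0.0373). The hepatocyte markers summed to 35500 to 36270 RPKM at ZT14-unfed and to 31570 to 32020 at ZT10, with 5 of 6 higher and 1 past the test, and the stellate cell markers to 74.3 to 76.4 and 58.9 to 71.7, with 0 past it. Their part in the result was not tested.

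The meal at the same hour lowered 3 of the 8 in uninjected mice, where 6.77% of the genes tested passed. Klf15 was at 50.7 and 54.4 RPKM in ZT14-unfed livers and at 28.8 and 31.2 in ZT14-fed livers, a difference of -0.80 (SE 0.10, adjusted p = 0.00903). Klf9 was at 23.9 and 27.3 RPKM unfed and at 10.2 and 8.85 fed. Its difference was -1.38 (SE 0.16, adjusted p = 0.0066). Klf11, a SIN3-binding factor linked to insulin gene control and glucose production, was at 2.18 and 3.67 RPKM unfed and at 0.601 and 0.518 fed, a difference of -1.66 (SE 0.25, adjusted p = 0.0149). For each of these genes both fed livers lay below both unfed ones. With 2 mice per group, 6 of the 8 KLF genes had groups apart, among them Klf12 and Klf13, which did not pass. The share of all genes with groups apart is not given here. Klf3 (-0.38, adjusted p = 0.149) did not pass, and Klf6, Klf10, Klf12, and Klf13 lay between -0.14 and 0.19, while the median of all genes was 0.12. The calls of Klf11 and Klf15 were lost without ZT14-fed replicate 1 or 2 and that of Klf9 without replicate 2, with values of -1.28 for Klf9, -1.72 to -1.60 for Klf11, and -0.85 to -0.74 for Klf15 (adjusted p = 0.0747 to 0.121). Klf3 was -0.20 without ZT14-unfed replicate 2, and Klf10, at 0.01, was -0.38 and 0.40 without ZT14-unfed replicate 1 and 2. The summed levels of the 5 endothelial markers were also lower after the meal (45.9 to 51.2 against 54.8 to 59.0 RPKM), with 5 of 5 lower and 0 of 5 past the test. The sums of the hepatocyte markers (29650 to 32780 against 35500 to 36270) and of the stellate cell markers (60.8 to 67.3 against 74.3 to 76.4) were lower without overlap as well, with 0 past the test. The part of these markers was not tested. In bulk liver, fewer cells of a type and less RNA per cell cannot be told apart.

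In vehicle-injected mice the meal lowered Klf15 and raised Klf10, 2 of the 8, where 3.13% of the genes passed. Klf15 was at 79.0, 78.9, 72.3, and 82.1 RPKM in unfed livers and at 46.0, 43.8, 44.4, and 64.1 in fed livers, a difference of -0.67 (SE 0.16, adjusted p = 0.0308), and -0.77 in replicates 1 to 3. Klf10, the TGF-beta inducible member of the SIN3-binding group, was at 3.89, 4.16, 4.87, and 4.18 RPKM unfed and at 5.38, 8.20, 6.80, and 9.14 fed, with no overlap. Its difference was 0.70 (SE 0.18, adjusted p = 0.0378), and 0.59 in replicates 1 to 3, where it did not pass (adjusted p = 0.101). Klf9 (-0.40, adjusted p = 0.0891), Klf11 (-0.56, adjusted p = 0.103), Klf3 (-0.37, adjusted p = 0.357), and Klf6 (0.40, adjusted p = 0.241) did not pass. In replicates 1 to 3 these values were -0.40, -0.66, -0.70, and 0.55, and Klf9 and Klf3 then passed (adjusted p = 0.0365 and 0.013). With the library series as a term Klf9 passed as well (adjusted p = 0.00914). Klf12 and Klf13 were at -0.11 and 0.03, and at -0.14 and 0.08 in replicates 1 to 3. The median of all genes was 0.1, and with median-ratio scaling Klf10 was at 0.62 (adjusted p = 0.0779). The call of Klf15 was lost without any 1 of the 8 libraries except fed vehicle replicate 4, and that of Klf10 without any 1 except fed vehicle replicate 1, at values of -0.70 to -0.61 and 0.60 to 0.76 (adjusted p = 0.0577 to 0.115). Klf3 was -0.63 without fed vehicle replicate 4. The 5 Kupffer cell markers summed to 62.6 to 98.5 RPKM in these fed livers and to 45.1 to 58.7 in the unfed ones, with 5 of 5 higher and 2 past the test, the 3 erythroid markers to 57.3 to 67.2 and 45.7 to 51.8, and their part was not tested.

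Dex in fed mice, which adds a glucocorticoid at a time when the meal is being absorbed, raised 1 of the 8 (3.19% of the genes passed). Klf15 was at 77.7, 95.9, 75.7, and 107 RPKM with dex, all above the 43.8 to 64.1 of the fed vehicle livers. The difference was 0.84 (SE 0.16, adjusted p = 0.00642), and 0.88 in replicates 1 to 3. Fitted on the 2 groups alone it was the same in size and did not pass (adjusted p = 0.0522). Klf3 was at 19.7, 21.3, 20.3, and 28.1 RPKM with dex and at 11.3, 12.6, 11.0, and 24.4 with vehicle, so that the groups overlapped through vehicle replicate 4. Its difference of 0.64 (adjusted p = 0.108) became 0.90 without that library (adjusted p = 0.00899) and 0.79 in replicates 1 to 3 (adjusted p = 0.00492). Klf10 (-0.61, adjusted p = 0.0702) passed without fed vehicle replicate 1 (-0.74, adjusted p = 0.0375) or fed dex replicate 3 (-0.71, adjusted p = 0.049) and was -0.57 in replicates 1 to 3. With the library series as a term, over all 8 libraries, Klf10 and Klf3 both passed (adjusted p = 0.0349 and 0.0409). Klf11 was at -0.39 (adjusted p = 0.279), at -0.25 without fed dex replicate 2 and at -0.26 in replicates 1 to 3, and Klf6, Klf9, Klf12, and Klf13 lay between -0.29 and 0.13, and between -0.45 and 0.13 in replicates 1 to 3. The Kupffer cell markers summed to 40.1 to 64.1 RPKM with dex and 62.6 to 98.5 with vehicle, with 5 of 5 lower and 1 past the test. The endothelial markers summed to 50.1 to 62.6 and 60.5 to 71.2 RPKM, with 4 of 5 lower and 2 past the test, and the part of these markers was not tested.

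S961 in fed mice, which blocks the insulin receptor during the meal, raised other members, 2 of the 8 (1.9% of the genes passed). Klf10 was at 17.0, 16.7, 17.0, and 19.96 RPKM with S961, against 5.38 to 9.14 with vehicle, a difference of 1.22 (SE 0.18, adjusted p = 0.00168), and 1.27 in replicates 1 to 3. Klf11 was at 2.17, 3.13, 1.65, and 2.49 RPKM with S961 and at 0.872, 1.18, 0.823, and 1.31 with vehicle. Its difference was 0.88 (SE 0.19, adjusted p = 0.0172), and 0.93 in replicates 1 to 3, short of the threshold (adjusted p = 0.0608). For both genes all S961 livers were above all vehicle livers. Klf9 (0.33, adjusted p = 0.213), Klf13 (-0.51, adjusted p = 0.106), and Klf3 (-0.43, adjusted p = 0.374) did not pass, with 0.32, -0.58, and -0.31 in replicates 1 to 3. With the library series as a term Klf9 passed (adjusted p = 0.0312). Klf6, Klf12, and Klf15 lay between -0.27 and -0.11, and between -0.23 and -0.09 in replicates 1 to 3. The call of Klf11 was lost without fed vehicle replicate 1 or 3 or fed S961 replicate 2 or 4 (0.75 to 0.85, adjusted p = 0.058 to 0.0731) and on the 2 groups alone (adjusted p = 0.128). Klf3 was -0.17 without fed vehicle replicate 4. The Kupffer cell markers summed to 42.7 to 64.5 RPKM with S961, with 5 of 5 lower than with vehicle and 2 past the test, and their part was not tested.

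**Figure D3:**
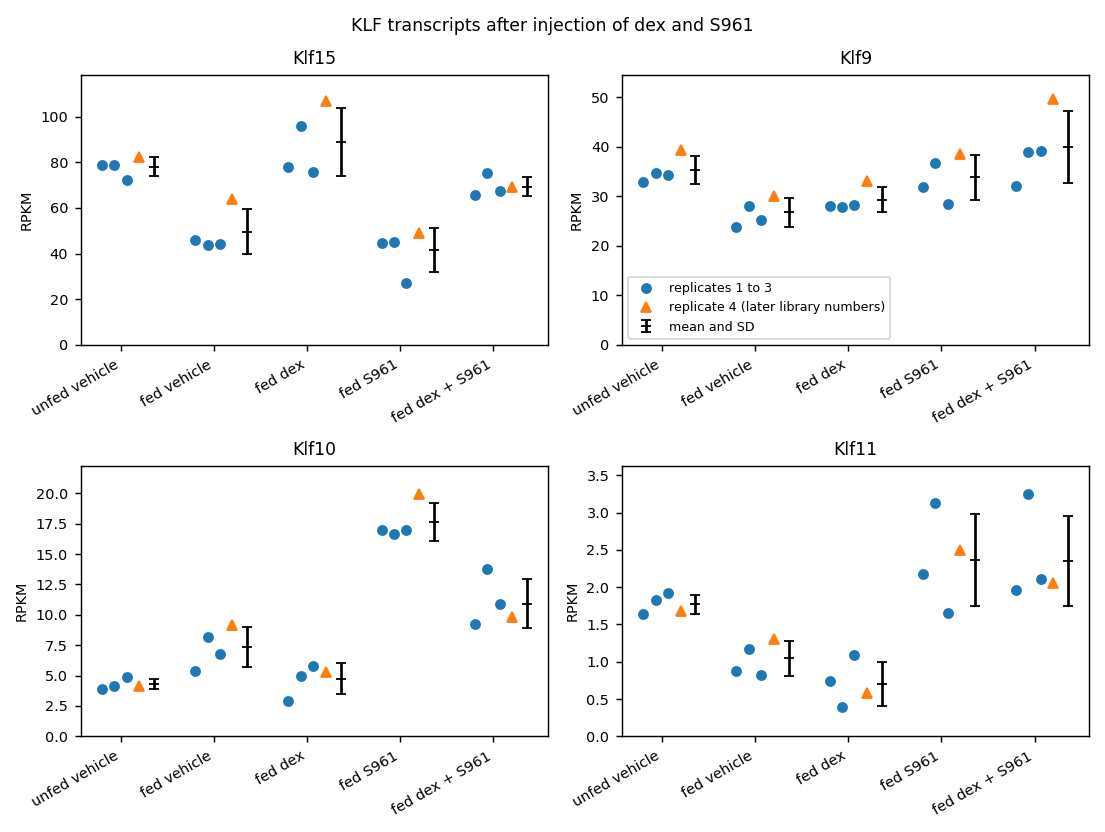
RPKM (y axes, linear, from 0) of Klf15, Klf9, Klf10, and Klf11 in the 5 groups of injected mice; circles are replicates 1 to 3, triangles are replicate 4, and bars are the mean ± SD of the 4 mice. Klf15 is high with dex, Klf10 and Klf11 are high with S961, and Klf9 is highest with both.

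The combination of dex and S961 raised Klf9 and Klf11, 2 of the 8, at 10.6% of the genes tested. Klf9 was at 32.1, 39.1, 39.1, and 49.8 RPKM with both agents and at 23.8, 28.1, 25.2, and 30.1 with vehicle, without overlap. The difference was 0.56 (SE 0.12, adjusted p = 0.00769), and 0.51 in replicates 1 to 3, beside 0.13 with dex and 0.33 with S961. Klf11 was at 1.97, 3.25, 2.11, and 2.06 RPKM, a difference of 0.87 (SE 0.19, adjusted p = 0.00589), and 1.0 in replicates 1 to 3. Klf15 (0.50, adjusted p = 0.0548), Klf10 (0.55, adjusted p = 0.0568), and Klf13 (-0.48, adjusted p = 0.0504) fell just short, with 0.63, 0.69, and -0.47 in replicates 1 to 3, where Klf15 and Klf10 passed (adjusted p = 0.0214 and 0.0439). Klf15 and Klf10 also passed without fed vehicle replicate 4 (0.63 and 0.65, adjusted p = 0.0197 and 0.035), as did Klf13 without fed dex + S961 replicate 3 (-0.57, adjusted p = 0.0288). With the library series as a term all 3 passed (adjusted p = 0.0153, 0.0339, and 0.0276). Klf3 was at 0.19, at 0.45 without fed vehicle replicate 4, and at 0.50 in replicates 1 to 3, where it passed (adjusted p = 0.0348). Klf6 and Klf12 were at -0.24 and 0.05, and at -0.35 and 0.09 in replicates 1 to 3. The median of all genes was -0.14, and after median-ratio scaling 4 members passed. These 3 comparisons and the meal share the fed vehicle libraries. The Kupffer cell markers summed to 50.8 to 59.8 RPKM with both agents, below the 62.6 to 98.5 of fed vehicle, with 5 of 5 lower and 3 past the test, and their part was not tested.

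Dex and S961 did not deviate detectably from adding up on the log2 scale. The interaction was called by limma for 0 of the 8 and for 0.0% of all genes, with 0 of the 8 and 513 genes at an unadjusted p under 0.05. Its 95% interval was -0.27 to 0.47 for Klf9 and -0.55 to 0.40 for Klf15, and that of Klf11 was -0.17 to 0.93. Klf11 and Klf6 had the largest values, 0.38 and 0.30 (both adjusted p = 1.0), and 0.34 and 0.30 in replicates 1 to 3, where Klf12 was at 0.31. Klf11 was 0.24 to 0.25 without fed dex replicate 2, fed S961 replicate 3, or fed dex + S961 replicate 2, and Klf6 was 0.46 without fed S961 replicate 2 and 0.19 without fed S961 replicate 4.

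The dex and S961 livers themselves differed in 5 of the 8, where 7.47% of the genes passed. Klf15 was higher with dex by 1.11 (SE 0.16, adjusted p = 0.000197), from 27.3 to 49.0 RPKM with S961. Klf3 was at 8.26, 12.04, 7.94, and 13.8 RPKM with S961, below all 4 dex livers, a difference of 1.08 (SE 0.22, adjusted p = 0.00321). Klf13 was at 7.10, 7.87, 8.92, and 10.7 RPKM with dex and at 6.74, 5.47, 3.78, and 6.30 with S961, a difference of 0.60 (SE 0.15, adjusted p = 0.0175). Klf10 was lower with dex, with a difference of -1.83 (SE 0.18, adjusted p = 5.15e-06), at 2.87, 4.94, 5.79, and 5.32 RPKM. Klf11 was lower with dex, with a difference of -1.26 (SE 0.19, adjusted p = 0.000233), at 0.741, 0.387, 1.09, and 0.579 RPKM. The CtBP-binding Klf3, the SIN3-binding Klf13, and Klf15 were thus higher with dex, and the SIN3-binding Klf10 and Klf11 were higher with S961. In replicates 1 to 3 the values of Klf15, Klf3, Klf13, Klf10, and Klf11 were 1.11, 1.10, 0.57, -1.84, and -1.19, all called but that of Klf13 (adjusted p = 0.0522), which was also lost without fed dex replicate 4 or fed S961 replicate 3 (0.50 and 0.44, adjusted p = 0.0586 and 0.0592). Klf6, Klf9, and Klf12 lay between -0.20 and 0.12, and between -0.25 and -0.04 in replicates 1 to 3. Of the 5 endothelial markers 1 was higher and 1 lower with dex past the test, with overlapping sums (50.1 to 62.6 and 54.6 to 62.5 RPKM), and their part was not tested.

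Against unfed vehicle livers, the fed livers with both agents differed in 1 of the 8 (2.32% of the genes passed). Klf10 was at 9.27, 13.8, 10.9, and 9.82 RPKM in them, a difference of 1.25 (SE 0.18, adjusted p = 0.00075), and 1.28 in replicates 1 to 3. Klf15, at 65.5 to 75.2 RPKM, differed from the unfed livers by -0.17 (95% interval -0.51 to 0.17), and Klf9 by 0.16 (95% interval -0.10 to 0.42). Klf11 (0.31, adjusted p = 0.6) and Klf13 (-0.45, adjusted p = 0.169) did not pass, with 0.34 and -0.39 in replicates 1 to 3, and the other members lay between -0.19 and 0.16, and between -0.19 and 0.19 in replicates 1 to 3. Klf11 was 0.17 without fed dex + S961 replicate 2. In order of level among the injected mice, Klf15 went from S961 through fed vehicle, dex + S961, and unfed vehicle to dex. In this order only fed vehicle and dex + S961, at 43.8 to 64.1 and 65.5 to 75.2 RPKM, were neighbours that did not overlap.

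Loss of GR in unfed livers lowered 2 of the 8 (6.68% of the genes passed). Klf9 was at 25.7, 26.0, 23.2, and 32.7 RPKM with AAV-GFP and at 11.7, 17.1, 18.6, and 12.8 in L-GRKO, a difference of -0.83 (SE 0.16, adjusted p = 0.0112). Klf15 was at 95.0, 77.8, 84.3, and 81.7 RPKM with AAV-GFP and at 55.4, 58.6, 67.1, and 60.4 in L-GRKO, a difference of -0.48 (SE 0.09, adjusted p = 0.0131). Neither gene's groups overlapped, and Klf15 was still at 55.4 RPKM or more in the L-GRKO livers. Klf3 was at 28.5, 18.2, 18.5, and 19.6 RPKM and at 15.03, 13.4, 17.0, and 14.8, also without overlap, and did not pass (-0.46, adjusted p = 0.0886) except with median-ratio scaling (-0.55, adjusted p = 0.0493) or quantile normalization (-0.55, adjusted p = 0.0452). The other 5 lay between -0.29 and 0.24. Klf11, at -0.20, was at 4.75 RPKM in L-GRKO replicate 3 against 1.11 to 1.51 in the others, and its difference was -0.58 without that library (adjusted p = 0.139). The 3 erythroid markers summed to 98.7 to 132 RPKM in L-GRKO and to 64.4 to 75.7 with AAV-GFP, with 3 of 3 higher and 1 past the test. The stellate cell markers summed to 48.4 to 71.1 and 33.7 to 50.7 RPKM, with 5 of 5 higher and 1 past the test, and the part of these markers was not tested.

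Loss of Irs1 and Irs2 in fed livers with dex raised Klf6 and Klf11, 2 of the 8, where 17.4% of the genes passed. Klf6, an early response factor of injury that stellate cells and other cells also express, was at 2.27, 3.84, 2.96, and 4.18 RPKM in floxed livers and at 6.21, 7.29, 5.51, and 5.27 in L-IRSdKO. The difference was 0.80 (SE 0.19, adjusted p = 0.0209), and 0.79 without L-IRSdKO replicate 1. Klf11 was at 2.41, 2.75, 2.52, and 1.75 RPKM in floxed livers and at 5.28, 3.15, 4.16, and 6.37 in L-IRSdKO. The difference was 0.85 (SE 0.21, adjusted p = 0.0285), and 0.79 (adjusted p = 0.0446) without L-IRSdKO replicate 1. For both, all L-IRSdKO livers were above all floxed ones. Klf10 (0.31, adjusted p = 0.283) and Klf13 (0.38, adjusted p = 0.1) did not pass, and without L-IRSdKO replicate 1 they were 0.16 and 0.49, the latter called (adjusted p = 0.0275). Klf3, Klf9, Klf12, and Klf15 were at 0.11, 0.18, -0.09, and 0.08, and at -0.17, 0.23, 0.03, and 0.04 without L-IRSdKO replicate 1, so that the signs of Klf3 and Klf12 turned. Klf3 was 0.34 without L-IRSdKO replicate 3. Klf15 was at 134 to 168 RPKM in floxed and 153 to 174 in L-IRSdKO livers, with a 95% interval of -0.11 to 0.26. The call of Klf6 was lost without Irs1/Irs2 fl/fl replicate 3 or L-IRSdKO replicate 2 (0.77 and 0.72, adjusted p = 0.0507 and 0.065). That of Klf11 was lost without Irs1/Irs2 fl/fl replicate 1, 3, or 4 or L-IRSdKO replicate 3 or 4 (0.70 to 0.89, adjusted p = 0.0523 to 0.0772). The Kupffer cell markers summed to 140.7 to 262 RPKM in floxed and 248 to 318 in L-IRSdKO livers, overlapping, with 5 of 5 higher and 1 past the test. The endothelial markers summed to 88.9 to 116 and 108.1 to 143 RPKM (3 of 5 past the test, higher). The stellate cell markers summed to 90.4 to 110.1 and 108.5 to 129 RPKM, with 3 of 5 higher and 1 past the test, higher. The 3 erythroid markers were lower in L-IRSdKO (20.2 to 49.4 against 57.5 to 88.4, with 1 past the test), as were the cholangiocyte markers (1.65 to 2.91 against 3.44 to 5.43, with 1 of 4 past the test). Of the 6 hepatocyte markers 4 were lower and 2 of these past the test, with overlapping sums (2279 to 2709 and 2572 to 2903). Their part in these results was not tested.

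**Figure D4:**
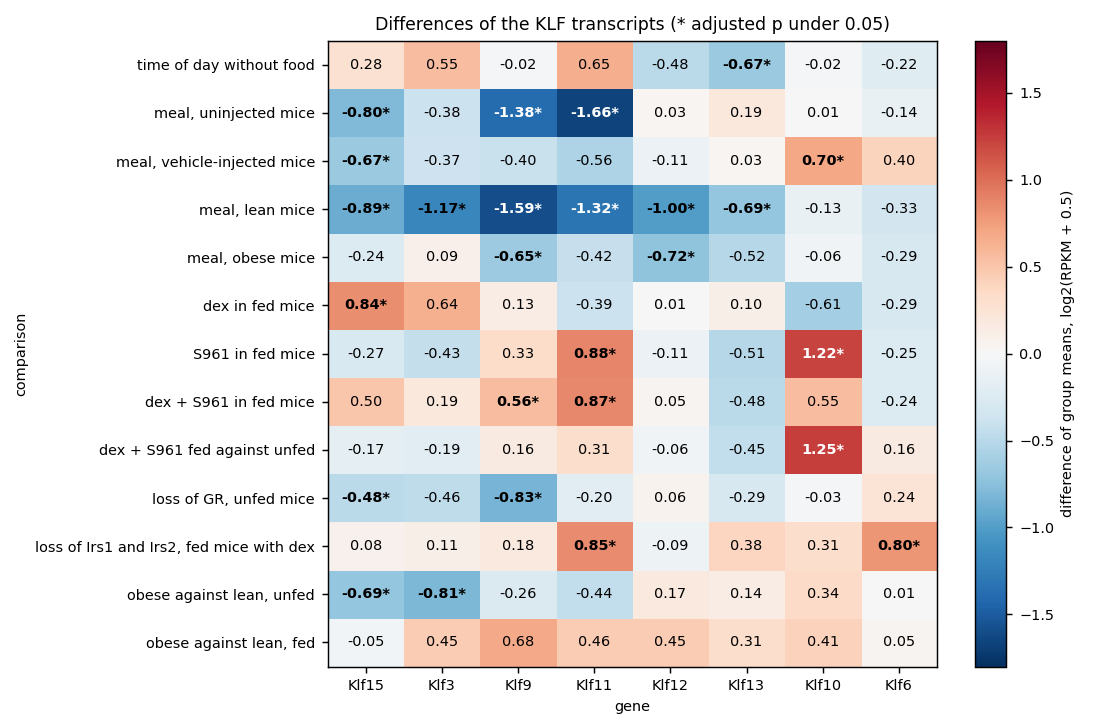
Differences of group means on the log2(RPKM + 0.5) scale (colour and number in each cell) for the 8 KLF transcripts (columns) in 13 comparisons (rows), with a star and bold type where the BH-adjusted p is under 0.05. Klf15, Klf9, and Klf11 carry negative values in all 4 meal comparisons, and the largest values of Klf10 are in comparisons with S961.

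The meal in lean mice lowered 6 of the 8, in a comparison where 23.4% of all genes passed. Klf9 was at 33.2, 39.7, and 35.9 RPKM unfed and at 11.5, 14.3, and 9.69 fed, a difference of -1.59 (SE 0.14, adjusted p = 0.000166). Klf11 was at 3.06, 3.50, and 3.17 RPKM unfed and at 0.953, 0.879, and 1.19 fed, a difference of -1.32 (SE 0.24, adjusted p = 0.00347). Klf13, at 7.48, 11.3, and 9.47 unfed and 6.13, 6.23, and 4.49 fed, differed by -0.69 (SE 0.22, adjusted p = 0.0422). All fed livers lay below all unfed ones in these SIN3-binding members, as in 7 of the 8 KLF genes in this comparison. The groups overlapped only in Klf10, which also binds SIN3. The share of all genes with groups apart is not given here. The CtBP-binding Klf3 was at 20.8, 28.2, and 21.8 RPKM unfed and at 8.78, 12.1, and 9.70 fed, a difference of -1.17 (SE 0.15, adjusted p = 0.000575). Klf12, at 4.41, 5.56, and 5.75 unfed and 2.58, 2.48, and 2.05 fed, differed by -1.0 (SE 0.12, adjusted p = 0.000538). Klf15 was at 96.2, 106, and 100.02 RPKM unfed and at 52.4, 56.9, and 53.3 fed, a difference of -0.89 (SE 0.11, adjusted p = 0.000538). Klf6 (-0.33, adjusted p = 0.26) and Klf10 (-0.13) did not pass, and the median of all genes was 0.08. The call of Klf13 was lost without lean unfed replicate 2 or 3 or any of the lean fed libraries (-0.77 to -0.55, adjusted p = 0.0671 to 0.144). The 5 endothelial markers summed to 39.3 to 46.3 RPKM fed and 54.4 to 65.6 unfed, with 5 of 5 lower and 4 past the test. The stellate cell markers summed to 41.1 to 55.3 RPKM fed and 57.2 to 93.6 unfed, with 3 of 5 lower and 1 past the test, and the part of these markers was not tested.

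In obese mice the meal lowered 2 of the 8, with 7.65% of the genes passing. Klf9 was at 34.6, 28.2, and 28.0 RPKM unfed and at 21.8, 18.1, and 17.5 fed, a difference of -0.65 (SE 0.14, adjusted p = 0.0232). Klf12 was at 6.77, 5.62, and 5.47 RPKM unfed and at 3.71, 3.25, and 3.29 fed, a difference of -0.72 (SE 0.12, adjusted p = 0.00903). In both, the groups did not overlap. Klf3 was at 13.6, 14.8, and 11.3 RPKM unfed and at 14.2, 13.0, and 14.8 fed, overlapping. Klf13 (-0.52, adjusted p = 0.167) passed without obese unfed replicate 3 (-0.78, adjusted p = 0.0294) and was -0.34 without obese unfed replicate 1. Klf11 (-0.42, adjusted p = 0.31) was -0.68 without obese fed replicate 1 and -0.08 without obese fed replicate 3. Klf15 was at -0.24 and passed without obese unfed replicate 3 (-0.39, adjusted p = 0.016). Klf3, Klf6, and Klf10 lay between -0.29 and 0.09. The call of Klf9 was lost without obese unfed replicate 1 or obese fed replicate 2 or 3 (-0.62 to -0.55, adjusted p = 0.0592 to 0.0946), and on these 2 groups alone neither gene passed (adjusted p = 0.0771 for Klf9 and 0.0604 for Klf12).

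The difference between these meal effects was itself tested, and 1 of the 8 passed, with 0.743% of all genes. For Klf3 the meal difference was -1.17 in lean mice and 0.09 in obese mice, and the latter minus the former was 1.26 (SE 0.21, adjusted p = 0.0224). Klf9 (0.94, 95% interval 0.50 to 1.38, adjusted p = 0.0619) and Klf15 (0.64, 95% interval 0.31 to 0.98, adjusted p = 0.0849) did not pass over all genes, nor did Klf11 (0.90, adjusted p = 0.248). The others lay between 0.04 and 0.28. The call of Klf3 was lost in 8 of the 12 fits without 1 library (1.12 to 1.31, adjusted p = 0.0512 to 0.0703), namely without lean unfed replicate 2 or 3, lean fed replicate 1 or 3, obese unfed replicate 3, or any obese fed library. Klf9 passed without obese unfed replicate 1 or lean fed replicate 2 (1.04 and 1.08, adjusted p = 0.0405 and 0.0394), Klf15 without obese unfed replicate 1 (0.73, adjusted p = 0.0479), and Klf11 without obese fed replicate 3 (1.24, adjusted p = 0.0305).

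**Figure D5:**
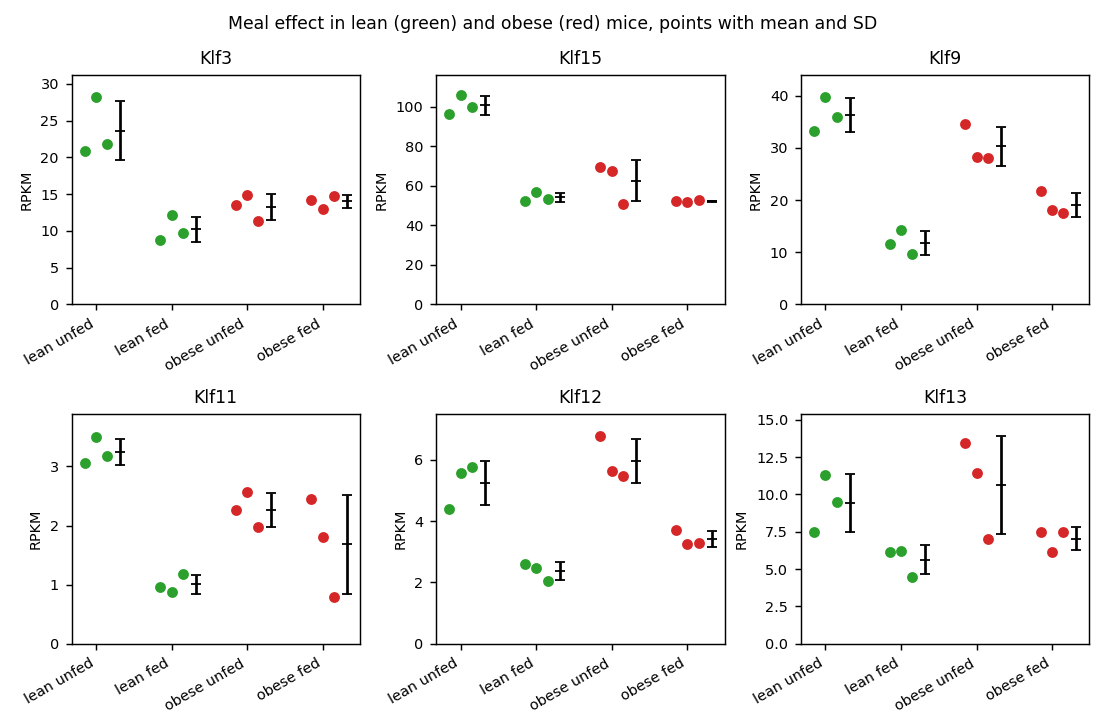
RPKM (y axes, linear, from 0) of 6 KLF transcripts in unfed and fed livers of lean mice (green) and obese mice (red); points are single mice and bars the mean ± SD of 3. Klf3 and Klf15 are lower in obese than in lean unfed livers, and Klf9 and Klf12 fall with the meal in both.

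Before the meal, obese livers held less of 2 of the 8 than lean livers (5.22% of the genes passed). Klf15 was at 69.7, 67.6, and 50.6 RPKM, all below the lean unfed livers, a difference of -0.69 (SE 0.11, adjusted p = 0.00805). Klf3 was also lower, with a difference of -0.81 (SE 0.15, adjusted p = 0.0133), also without overlap. On these 2 groups alone neither passed (adjusted p = 0.0995 and 0.0869). Klf10 (0.34, adjusted p = 0.227) and Klf11 (-0.44, adjusted p = 0.29) did not pass, and the other 4 lay between -0.26 and 0.17, with Klf13 at 0.40 without obese unfed replicate 3. The 5 endothelial markers summed to 30.9 to 39.3 RPKM in obese and 54.4 to 65.6 in lean unfed livers, with 5 of 5 lower and 4 past the test. The hepatocyte markers summed to 51940 to 56010 and 57010 to 65010 RPKM, with 4 of 6 lower and 1 past the test, and the part of these markers was not tested. After the meal, limma called 0 of the 8 and 0.499% of all genes, with 4 of the 8 and 2284 genes at an unadjusted p under 0.05. Klf9 was higher in obese fed livers by 0.68 (adjusted p = 0.0644), at 17.5 to 21.8 against 9.69 to 14.3 RPKM, Klf3 by 0.45 (adjusted p = 0.137), Klf12 by 0.45 (adjusted p = 0.105), and Klf10 by 0.41 (adjusted p = 0.187). Klf11 (0.46, adjusted p = 0.309) and Klf13 (0.31, adjusted p = 0.46) had larger errors, and Klf6 and Klf15 were at 0.05 and -0.05. Without 1 library, Klf11 ranged from 0.20 (without obese fed replicate 1) to 0.80 (without obese fed replicate 3), Klf10 was 0.27 without lean fed replicate 2, and Klf13 was 0.17 without lean fed replicate 3. In obese fed livers the hepatocyte markers summed to 49520 to 52820 RPKM, against 58440 to 61890 in lean fed ones, with 3 of 6 lower. The stellate cell sums were 56.6 to 66.5 and 41.1 to 55.3, with 5 of 5 higher. The cholangiocyte sums were 1.77 to 2.70 and 2.88 to 3.43, with 4 of 4 lower. In these 3 cell types the sums did not overlap and 0 markers passed the test, and their part was not tested.

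The sister genes were given the same tests. Of the 9 other KLF genes, 5 passed the filter of a mean of 0.5 RPKM in at least 1 experiment, and they were called 6 times in 65 tests, 2 up and 4 down. Klf2, an endothelial factor, was lower in obese than in lean unfed livers (-1.0, SE 0.16, adjusted p = 0.0082) and after the meal in lean mice (-0.58, adjusted p = 0.0216), beside the endothelial markers given above, and rose on loss of Irs1 and Irs2 (0.80, adjusted p = 0.0134). Klf16 was lower with dex + S961 (-0.59, adjusted p = 0.022), and the erythroid factor Klf1 lower at ZT14-unfed than at ZT10 (-0.71, adjusted p = 0.0355). Klf5, Klf8, Klf14, and Klf17 had means of at most 0.0422 RPKM. The Sp factors, the closest relatives of the KLFs, were called 1 time, Sp5 in the meal of lean mice (0.86, adjusted p = 0.0041), in 61 tests over 5 genes. Of the 9 cofactors, 7 of 142 tests passed, 5 of them in the meal of lean mice, where the coactivators Crebbp (-0.86, adjusted p = 0.00193) and Ep300 (-0.54, adjusted p = 0.00636) fell and Hdac1 (0.46, adjusted p = 0.0108) rose. Neither Sin3a, Sin3b, Ctbp1, nor Ctbp2, which encode the corepressors that these KLFs bind, was called in any of the 16 comparisons. Over the 128 tests of the members, 32 passed, 13 up and 19 down, or 25%, beside 6.72% of the tests of all genes. Many of these tests share control libraries. The members were also chosen with earlier results of these data known, so these shares are descriptions and not a test.

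Over the 16 group means, centred within each experiment, the patterns of Klf3 and Klf15 were close (Pearson r = 0.88), as were those of Klf9 and Klf11 (r = 0.81) and of Klf12 and Klf13 (r = 0.75), whereas Klf10 went against Klf15 (r = -0.55) and Klf3 (r = -0.52). Among 10521 genes, those most like Klf15 were Slc38a2 (r = 0.94), Yod1 (r = 0.94), and Tat (r = 0.94), of which Yod1 (r = 0.93) and Tat (r = 0.91) were also among the 3 most like Klf3, with Tent5c (r = 0.91). Slc38a2 encodes an amino acid transporter and Tat the tyrosine-degrading aminotransferase. Klf9 was most like D230025D16Rik (r = 0.96), Lpin2 (r = 0.95), and Avl9 (r = 0.92), and Klf11 most like Ttpa (r = 0.97), Dnmbp (r = 0.95), and Tcp11l2 (r = 0.94). For Klf10 these were Cyp4f17 (r = 0.92), Lrig2 (r = 0.90), and Slc25a30 (r = 0.90), and for Klf12 Psd3 (r = 0.98), Abcc2 (r = 0.98), and Ncapd3 (r = 0.93). Klf13 was most like Trio (r = 0.90), Pcif1 (r = 0.87), and Cenpq (r = 0.86), and Klf6 most like Tbc1d12 (r = 0.96), Tarsl2 (r = 0.95), and Slf1 (r = 0.94). The group means are tied to one another by the centring and by depth within an experiment. The 16 are therefore not independent, and these values are descriptions.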

How the data were processed

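RPKM per RefSeq ID were deposited by the authors for 54 RNA libraries of 1 mouse each. Their processing notes name STAR, DESeq2, HOMER, and mm9, and counting tool and strand are not given in the sources used here. GR and FOXO1 sites, concordant between replicates, and DHSs, called on combined reads, were deposited as positions without scores. All value columns were mapped to samples (0 unused). RefSeq IDs were matched to symbols (35407 of 35707), with the highest mean RPKM kept per symbol. Each experiment was fitted apart in limma 3.58.1 (R 4.3.3) on log2(RPKM + 0.5) with a variance trend, for genes averaging 0.5 RPKM or more, two-sided, with BH adjustment over all genes tested; the fit was tested on simulated data. Members were named one by one where called or where the difference was at least 0.3, others by range; for each member the 3 genes most like it were named. Sites within 50 kb of the TSS were counted and searched for fixed motifs. The members, gene lists, and cell type markers were chosen with earlier results of these data known. Alternatives covered pseudocount, filter, threshold, scaling, RefSeq ID, samples fitted, library series, replicate block, left-out libraries, and site window. H3K27Ac libraries were not used here.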

Additional observations from a re-analysis of the deposited data

Results flagged for a closer look

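Among 72 pairs of a KLF gene and a group of 4 mice, 7 had 1 library farther from the others than Dixon's 95% limit, where chance gives about 1 in 20. In 4 of these the library was replicate 4 of an injected group, the one with library numbers apart from the rest. Klf3 was at 24.4 RPKM in fed vehicle replicate 4 against 11.0 to 12.6 in the others, and Klf15 in the same library at 64.1 against 43.8 to 46.0. Klf9 was at 33.1 RPKM in fed dex replicate 4 against 27.9 to 28.3, and Klf10 at 20 in fed S961 replicate 4 against 16.7 to 17.0. Klf11 was at 3.25 RPKM in fed dex + S961 replicate 2 against 1.97 to 2.11, and at 4.75 in L-GRKO replicate 3 against 1.11 to 1.51. Klf3 was at 28.5 RPKM in GR fl/fl AAV-GFP replicate 1 against 18.2 to 19.6.

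The meal effect on Klf3 differed between obese and lean mice, by 1.26 on the log2 scale in the test of the difference itself (adjusted p = 0.0224), with the libraries on which this call rests named above.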

How the results depend on the processing

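The values here are the numbers of the 8 KLF genes called by limma. None of the differences that were called or at least 0.3 in size changed sign in any alternative, and of the 32 called ones 13 kept the call in every alternative run. At an adjusted p under 0.01 the count went to 0 for time of day (from 1), the meal with vehicle (from 2), loss of GR (from 2), loss of Irs1 and Irs2 (from 2), and the meal by diet interaction (from 1), and to 1 from 2 for S961, the meal in obese mice, and obese against lean unfed livers. Without the filter, which tests more genes, it was 0 for time of day and for the interaction with diet, and 1 for the meal in uninjected mice (from 3) and with vehicle. With a filter at 2 RPKM it was 2 for time of day and 1 for S961. Median-ratio scaling gave 3 for time of day, 1 for the meal with vehicle, and 4 for dex + S961 (from 2), and quantile normalization 2 for time of day and 1 for loss of Irs1 and Irs2; over all genes the share called went from 8.95% to 12.9%, 7.13%, and 6.62% for time of day under the 2 RPKM filter and these scalings, and from 10.6% to 7.17% for dex + S961 with median-ratio scaling. Fits of only the groups compared gave 1 for the meal with vehicle, 0 for dex (from 1), 1 for S961, 0 for the meal in obese mice, 0 for obese against lean unfed, and 1 for obese against lean fed livers (from 0). With the library series as a term the count was 3 for dex and 5 for dex + S961, where 9.74% and 19.6% of all genes passed (from 3.19% and 10.6%), and in replicates 1 to 3 it was 2 for dex, 1 for S961, and 5 for dex + S961, where 7.28%, 1.98%, and 11.6% did. FOXO1 sites were found near 4 of the 8 genes within 20 kb (21.0% of all genes), against 7 within 50 kb, and GR sites near 5 (19.1% of all genes). The cause of these changes was not tested. The count of all genes moved by more than 1.5 times in 128 of 311 alternatives. Where no share of all genes stands beside a KLF count, the count does not show whether the KLF genes moved apart from the other genes.

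With 1 library left out the count ranged from 0 to 1 for time of day, 0 to 3 for the meal in uninjected mice, 0 to 1 for the meal with vehicle, 1 to 2 for dex, 1 to 2 for S961, 2 to 4 for dex + S961, 0 to 3 for loss of Irs1 and Irs2, 1 to 4 for the meal in obese mice, and 0 to 3 for the interaction with diet. Where 1 library remained in a group of 2, it was assumed to vary like the others. The shares of all genes called in these fits are not given. These counts therefore do not show whether the KLF genes moved apart from the other genes.

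With a replicate block the count was 3 for dex, 5 for dex + S961, and 1 for loss of Irs1 and Irs2, where 8.6%, 18.1%, and 11.1% of all genes passed. Same-numbered libraries correlated above 0.1 in 27 of 40 pairs of injected mice, with a median of 0.14 against -0.05 for differently numbered ones. The injected libraries thus shared some structure by replicate number, which the main fit leaves out. In the other experiments this held for 1 of 4 pairs in the L-GRKO, 0 of 4 in the L-IRSdKO, 0 of 6 in the NRF, and 3 of 18 in the diet experiment. The labels do not say that the numbers pair the mice.

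With 2 mice per group in the NRF experiment and Klf6 and Klf11 at low read numbers, small differences of these were not detectable.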

Other observations

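The KLF gene with 2 RefSeq IDs in the table, Klf10, had means of 7.68 and 5.13 RPKM through them, and their values over the 54 libraries ran together (Pearson r = 0.959, a description). DHSs within 50 kb numbered 15 at Klf11 and Klf15, 12 at Klf10, 11 at Klf3, 10 at Klf13, 9 at Klf6, 8 at Klf12, and 7 at Klf9. The nearest lay within 300 bp of the TSS for all members but Klf15 (1074 bp) and Klf12 (5031 bp).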
